A study of Mus musculus with 6 samples.

Results

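The probes described here are those of a mouse tiling array whose starts lie in 3 windows chosen as replication-dependent histone gene clusters. They number 756 of the 174638 non-control probes of the array. On mouse build mm9, the build of the scanner files, the first chr13 window spans chr13:21800000-22140000 and holds 150 probes. The second chr13 window spans chr13:23490000-23900000 and holds 437 probes, and the chr3 window spans chr3:96010000-96080000 and holds 169 probes. DNA methylation was measured in the pancreas of 12-week-old offspring by MeDIP-chip, on 3 arrays for offspring of dams with glucose intolerance and 3 for offspring of normally glucose-tolerant dams. The assay recovers methylated DNA with an antibody and hybridises it beside untreated input DNA, and the measured level is the log2 ratio of the MeDIP (Cy5) signal to the input (Cy3) signal, centred on the median probe of each array. The series asks whether maternal glucose status goes with offspring DNA methylation, and its text speaks of hyperglycemic dams for the first group. The labels give neither strain, sex nor diet, nor how glucose intolerance arose, nor whether samples are separate animals or litters, so p-values measure only sample-to-sample spread, which may be technical. The scanner files pair probes with coordinates and not with genes or probe sequences, so no window probe is assigned to a histone gene, and neither the name of the windows nor the tissue label could be checked against gene annotation or markers here.

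Replication-dependent histones are the H2A, H2B, H3, H4 and linker H1 proteins that package new DNA during S phase. Their genes are small, lack introns, lie in clusters of many near-identical copies, and give mRNAs that end in a stem-loop in place of a poly(A) tail. Their transcription is switched on at the start of S phase through the coactivator NPAT, with factors that bind class-specific promoter elements. MeDIP recovers fragments with several methylated CG dinucleotides, so the CG content of a region bounds how much of it can be recovered.

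The promoter sequences of RefSeq (build GRCm38.p6) show this range of CG content. The RefSeq gene table lists 64 such genes in 3 groups, 23 in the first group on chromosome 13, 31 in the second and 10 on chromosome 3. By protein they comprise 6 H1, 18 H2A, 16 H2B, 12 H3 and 12 H4 genes. Promoters were matched for 58 of them (59 promoters), each of 250 bases before and 50 after the start. The median histone promoter held 11 CG dinucleotides, against 7 over all 32851 promoters of the table, with medians of 12.5, 10 and 21 in the 3 groups in that order. The 250 upstream bases of the promoter with the most CG in those bases in each group, and of the histone promoter with the fewest, are given here 5′ to 3′ on the gene's strand, with each CG in capitals. Of promoters with equal counts 1 is shown: H4c12 also held 16 and H4c2 also held 2. H2ac23 encodes an H2A protein (chr13:21810117-21810366, plus strand, 16 CG), H4c1 an H4 protein (chr13:23761250-23761499, minus strand, 27 CG), H2ac18 an H2A protein (chr3:96245247-96245496, plus strand, 34 CG) and H2bc3 an H2B protein (chr13:23746484-23746733, plus strand, 2 CG). These coordinates are of GRCm38.p6 and cannot be set against the mm9 coordinates of the probes.
H2ac23: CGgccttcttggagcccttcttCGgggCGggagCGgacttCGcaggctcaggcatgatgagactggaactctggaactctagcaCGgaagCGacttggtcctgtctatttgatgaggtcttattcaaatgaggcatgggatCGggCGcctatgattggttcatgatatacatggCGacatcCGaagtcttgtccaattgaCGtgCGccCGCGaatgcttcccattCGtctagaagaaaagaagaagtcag
H4c1: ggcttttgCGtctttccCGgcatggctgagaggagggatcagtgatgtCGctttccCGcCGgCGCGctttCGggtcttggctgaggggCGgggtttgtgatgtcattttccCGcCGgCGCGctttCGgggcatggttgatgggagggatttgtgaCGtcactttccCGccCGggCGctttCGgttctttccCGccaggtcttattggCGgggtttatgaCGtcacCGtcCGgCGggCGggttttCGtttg
H2ac18: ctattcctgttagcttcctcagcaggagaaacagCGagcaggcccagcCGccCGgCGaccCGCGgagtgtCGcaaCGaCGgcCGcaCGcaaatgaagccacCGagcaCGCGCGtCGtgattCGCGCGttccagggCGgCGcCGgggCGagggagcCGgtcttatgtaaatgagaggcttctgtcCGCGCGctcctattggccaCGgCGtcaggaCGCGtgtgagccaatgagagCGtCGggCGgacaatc
H2bc3: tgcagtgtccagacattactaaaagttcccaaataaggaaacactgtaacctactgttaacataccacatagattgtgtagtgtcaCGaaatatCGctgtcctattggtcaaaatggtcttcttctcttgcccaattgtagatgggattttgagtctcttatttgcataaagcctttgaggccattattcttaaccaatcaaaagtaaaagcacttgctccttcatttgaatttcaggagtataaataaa

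Promoter elements differed by histone class. Searched on both strands of the 300 bases, CCAAT (reverse complement ATTGG) occurred in 51 of 59 histone promoters (86.4%), against 37.4% of all promoters. The H4 promoters were those with few matches, 3 of 11. TATAAA, also counted as its reverse complement, occurred in 34 (57.6%) against 13.6% of all promoters. The octamer ATTTGCAT (ATGCAAAT), the element bound by OCT1 in H2B promoters, occurred in 13 (22.0%) against 1.74%. Of these, 6 were among the 17 H2A promoters and 7 among the 15 H2B promoters, and none among the promoters of the other classes. The H2bc3 sequence above holds the octamer as atttgcat. H2A and H2B genes are commonly arranged as divergent pairs, so a match can be shared between neighbours.

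The array tiled the windows with gaps. Median spacing between probe starts was 208 bp, 211 bp and 210.5 bp, but 109 kb of the first chr13 window, between 21926565 and 22035718, held no probe. Input signal well above background on all 6 arrays was required of a probe, and 446 of 756 members passed (59.0%): 102, 236 and 108 in the 3 windows. Dim input removed 41.0% of members, against 33.2% of the 166361 other autosomal probes, and 46% in the second chr13 window. Members with dim input on at least 1 array of a group made up 40.3% for the glucose intolerance group and 22.1% for the normal tolerance group, against 32.7% and 16.7% of the other autosomal probes. The median input signal was 24.9 to 41.9 units in the first group and 53.9 to 93.8 units in the second. No window spot was saturated. A MeDIP signal well above background on all 6 arrays was found for 84.5% of the kept members and 88.7% of the kept other autosomal probes.

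High and low window probes were largely the same on each array. Between arrays, the levels of the kept window probes correlated across probes with r from 0.93 to 0.94 among the glucose intolerance arrays, 0.84 to 0.91 among the normal tolerance arrays and 0.79 to 0.93 between groups, where probes are not independent replicates and share their base composition across arrays. All 3 arrays of the glucose intolerance group were scanned in the first of 3 scan sessions, normal tolerance replicate 1 in the second, and normal tolerance replicates 2 and 3 in the third. The red photomultiplier was set to 359 V, 394 V and 421 V in these sessions. No session held both groups, so session and group cannot be told apart in any comparison between groups.

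Each histone window lay near or below the level of the other autosomal probes, and the chr3 window was the lowest. Its mean level was -0.50, -0.26 and -0.41 on the glucose intolerance arrays and -0.76, -0.32 and -0.50 on the normal tolerance arrays, each in the order of replicates 1, 2 and 3, which holds for all such values here. The other autosomal probes averaged -0.14, -0.07 and -0.16, then -0.29, -0.20 and -0.27. The chr3 window was thus lower on 6 of 6 arrays, with differences from -0.47 to -0.12 and a mean of -0.27 ± 0.13 (SD, n = 6 arrays), or 1.21-fold (exact two-sided sign-flip test over arrays, p = 0.03125, the smallest that 6 arrays allow; adjusted p = 0.0469 over 3 windows and 3 pairs of windows). The second chr13 window had mean levels of -0.44, -0.17 and -0.40, then -0.75, -0.22 and -0.27. Its difference from the other autosomal probes was -0.19 ± 0.18 (SD, n = 6; exact p = 0.0625, adjusted p = 0.075), below 0 on 5 of 6 arrays, and did not pass. The first chr13 window had mean levels of -0.18, 0.02 and -0.07, then -0.54, 0.13 and 0.00. Its difference was 0.08 ± 0.21 (SD, n = 6; exact p = 0.344), above 0 on 4 of 6 arrays.

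The same levels were also read in each channel, and the ratio is the MeDIP value minus the input value. Relative to the other autosomal probes in the same channel, MeDIP signal in the chr3 window stood at -0.56 to -0.43 log2 units over the 6 arrays, and input signal at -0.31 to -0.09. For the second chr13 window these ranges were -0.58 to -0.40 and -0.41 to -0.09, and on normal tolerance replicate 3 both channels stood at -0.41. In the first chr13 window MeDIP signal stood at -0.27 to -0.01 and input at -0.44 to -0.02. The pairs of windows differed on 6 of 6 arrays each (exact p = 0.03125, adjusted p = 0.0469 for each). The first chr13 window lay 0.27 ± 0.06 above the second and 0.35 ± 0.11 above the chr3 window, and the second lay 0.09 ± 0.08 above the chr3 window (SD, n = 6).

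**Figure D1:**
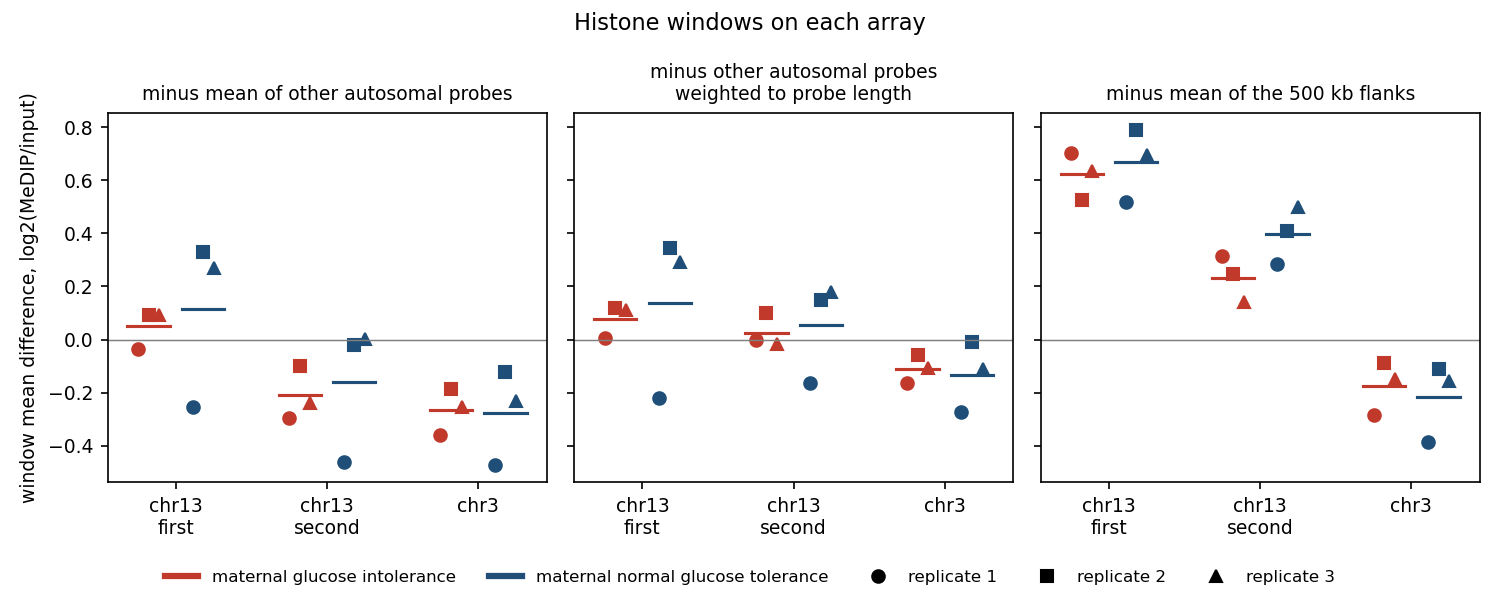
Mean log2(MeDIP/input) of each histone window on each array, as a difference from other autosomal probes (left), from other autosomal probes weighted to the probe lengths of the window (middle) and from the flanks (right). Points are arrays, horizontal bars are group means of 3 arrays; the chr3 window is below 0 on all 6 arrays in each panel, and normal tolerance replicate 1 is the lowest array of each window in the left and middle panels.

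Probe length moved with these differences. Probe length on such arrays is varied to even out melting temperature. The window probes were longer than others, with a median of 49 nt (46, 51 and 48 nt in the 3 windows) against 45 nt. Probes of 45 nt made up 32.9% of members and 50.4% of the other autosomal probes. The level fell with length inside and outside the windows. Kept window probes of 45 nt (206 probes) averaged 0.39 ± 0.13 (SD, n = 6 arrays) and those of 56 to 60 nt (57 probes) averaged -1.97 ± 0.45, while the other autosomal probes of these lengths averaged 0.24 ± 0.12 and -1.68 ± 0.38. With the other autosomal probes weighted to the probe lengths of each window, a reference added after the data had been seen, the chr3 difference shrank to -0.12 ± 0.09 and no longer passed (exact p = 0.03125, adjusted p = 0.0625). It remained below 0 on 6 of 6 arrays. The second chr13 window turned from -0.19 to 0.04 ± 0.13 (adjusted p = 0.562), and the first stood at 0.11 ± 0.20 (adjusted p = 0.262). None of the 3 differences between windows passed with this reference: 0.07 between the chr13 windows (adjusted p = 0.234), 0.23 between the first and the chr3 window and 0.16 between the second and the chr3 window (adjusted p = 0.0625 for both; n = 6 arrays, exact tests).

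**Figure D2:**
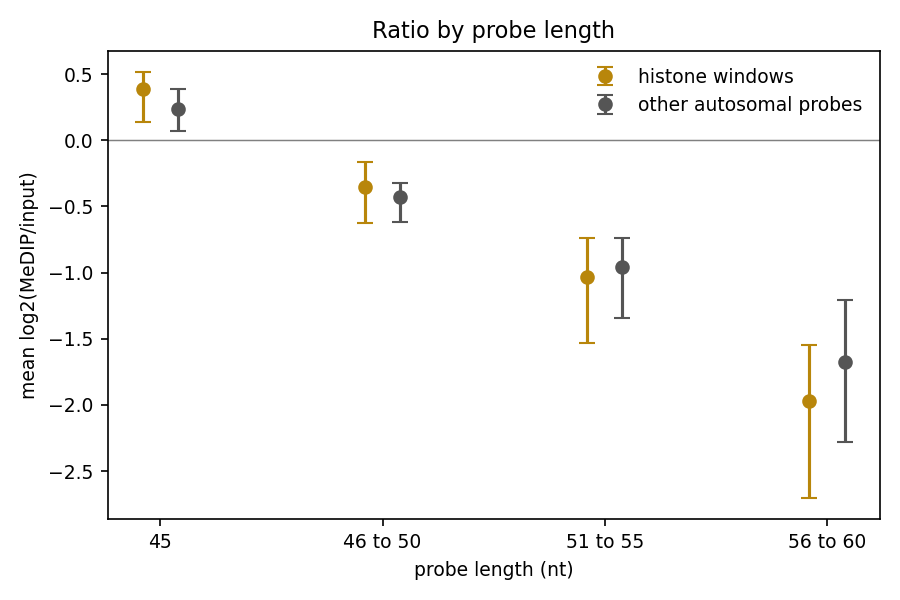
Mean log2(MeDIP/input) of kept probes by probe length in nt, for the histone windows and the other autosomal probes. Points are means over 6 arrays and bars run from the lowest to the highest array; in both sets the level falls from 45 nt to 56 to 60 nt.

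Against their own surroundings the chr13 windows stood higher and the chr3 window lower. The flanks were the probes within 500 kb on either side, with 149, 86 and 187 kept probes. The first chr13 window exceeded its flanks by 0.64 ± 0.11 (SD, n = 6 arrays), with array differences from 0.52 to 0.79, and the second by 0.32 ± 0.13, with differences from 0.14 to 0.50. The chr3 window was lower than its flanks by a mean difference of -0.20 ± 0.12, from -0.39 to -0.09 over the arrays. Each held on 6 of 6 arrays (exact p = 0.03125, adjusted p = 0.03125 over the 3 windows). With windows and flanks both set against length-weighted references, the chr13 differences were 0.36 ± 0.15 and 0.28 ± 0.12 (adjusted p = 0.0469, 6 of 6 arrays each), and that of the chr3 window was -0.04 ± 0.08 (adjusted p = 0.375). By the same measure the flanks themselves lay at -0.25, -0.24 and -0.08. The chr13 windows thus stood above flanks that were themselves below the other autosomal probes.

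Single probes spanned a wider range in the windows than these means. The median kept probe had a mean level over the 6 arrays of 0.14, -0.24 and -0.24 in the 3 windows, against 0.03 for the other autosomal probes. Levels of -1 or lower were found for 20.6%, 25.8% and 33.3% of kept probes in the 3 windows, against 20.04% elsewhere. Levels of 0.5 or higher were found for 30.4%, 25.4% and 24.1%, against 30.7%. The 3 highest and the 3 lowest members all lay in the second chr13 window. Probe Ch_220697_0028110 (chr13:23831211-23831255) was the highest, with 2.87 and 2.32 on the glucose intolerance arrays, the replicate 3 spot being left out as an outlier, and 2.56, 3.16 and 3.09 on the normal tolerance arrays. It was high on every array that gave a value, and it was picked by its mean over these same arrays. Ch_220697_0028170 (chr13:23852930-23852974) averaged 2.57 over the 4 arrays with a value, and Ch_220697_0028137 (chr13:23837241-23837285) 2.44 over 5 arrays. At the other end, Ch_220697_0028185 (chr13:23873936-23873995) had -4.54, -3.74 and -4.68, then -4.75, -4.60 and -3.30. On no array was its MeDIP spot well above background, so only a bound on its level is known. The same held for Ch_220697_0028068 (chr13:23802946-23803003, mean -4.03) and Ch_220697_0027992 (chr13:23770220-23770277, mean -3.99). With dim MeDIP spots set no lower than the dimmest MeDIP spot that cleared background on the same array, the 3 means were -2.44, -2.63 and -2.72. Such MeDIP-dim probes were 10 of the 446 kept members (2.24%), against 1.32% of the kept other autosomal probes.

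Neighbouring probes were joined into runs, each of at least 3 kept probes with starts at most 500 bp apart. The windows held 15, 34 and 14 runs, 63 in all, with 336 of the 446 kept probes. The kept members outside any run numbered 8, 74 and 28. The runs had median levels of -0.27, -0.26 and -0.26 in the 3 windows, against -0.04 for all 18562 runs of the array. Most of the variance of probe levels lay within runs and 22.7% between them. Any grouping of 336 probes into 63 runs puts part of the variance between runs, and that part was not computed. The median SD among the probes of a run was 1.11 in the windows and 0.85 over all runs. Levels of adjacent kept probes correlated across 311 pairs at r = 0.13 to 0.27 on the 6 arrays, and at 0.23 to 0.31 across 78862 pairs elsewhere. In the authors' deposited table the same pairs gave 0.56 to 0.61 in the windows and 0.63 to 0.68 elsewhere. These pairs share library and local base composition.

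In the first chr13 window the highest run was at chr13:22134039-22135937 (7 probes), with 0.85, 0.79 and 0.85, then 0.40, 0.68 and 0.67 on the 6 arrays. The lowest was at chr13:21900944-21902007 (5 probes), with -1.22, -0.68 and -0.72, then -1.34, -0.36 and -0.65. No run of this window had a mean of -1 or lower. In the second chr13 window, 7 of 34 runs did (20.6%), and in the chr3 window 2 of 14 (14.3%), against 10.2% of all 18562 runs. The lowest and the highest run there were neighbours. The run at chr13:23644125-23644643 (3 probes) had -1.86, -1.36 and -1.88, then -3.14, -1.60 and -2.76. The run at chr13:23646347-23647289 (3 probes) had 1.16, 0.77 and 0.96, then 0.58, 1.104 and 0.81. The second of these runs was the higher on each array, which largely follows from picking both by their means over these arrays. In the chr3 window the lowest run was at chr3:96026670-96027983 (7 probes), with -1.91, -0.96 and -1.73, then -2.42, -1.13 and -1.51, and the highest was at chr3:96022144-96022693 (3 probes), with 0.58, 0.56 and 0.83, then 0.34, 0.59 and 0.47.

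**Figure D3:**
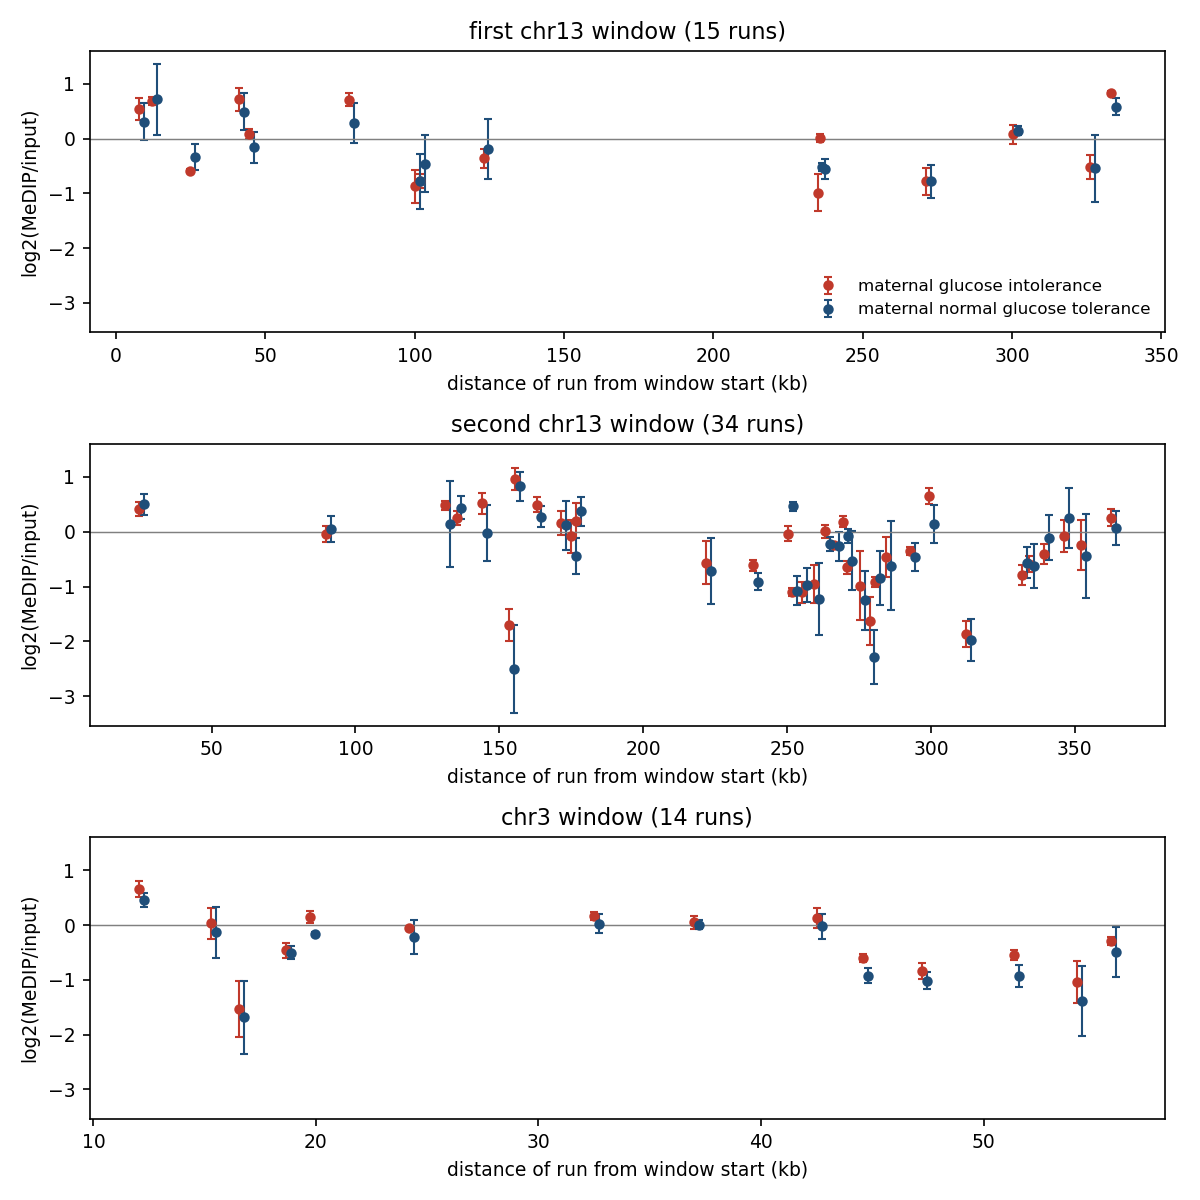
Mean log2(MeDIP/input) of the 63 runs by distance from the window start in kb, for the 2 groups. Points are means of 3 arrays and bars are SD; low runs of the second chr13 window occur beside runs near or above 0, and most runs have overlapping groups.

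Between the groups, no window mean differed beyond the spread of the arrays. Differences are glucose intolerance minus normal tolerance, and exact two-sided permutation tests of 3 arrays against 3 cannot go below p = 0.1. Relative to the other autosomal probes the difference was -0.07 in the first chr13 window (0.05 ± 0.07 against 0.12 ± 0.32, SD, n = 3; exact p = 0.8), -0.05 in the second (-0.21 ± 0.10 against -0.16 ± 0.26; exact p = 0.8) and 0.01 in the chr3 window (-0.27 ± 0.09 against -0.28 ± 0.18; exact p = 1). In the array-median-centred levels, without that reference, the differences were 0.06, 0.08 and 0.14 (exact p = 0.9, 0.8 and 0.5). Relative to the flanks they were -0.05, -0.16 and 0.04 (exact p = 0.8, 0.2 and 0.6). The groups overlapped in each of the 3 windows relative to the other autosomal probes.

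Normal tolerance replicate 1 gave much of the spread of its group. Relative to the other autosomal probes it stood at -0.25, -0.46 and -0.47 in the 3 windows, where normal tolerance replicates 2 and 3 stood at 0.33 and 0.27, at -0.02 and 0.00, and at -0.12 and -0.23. It was the lowest of the 6 arrays in 41 of the 63 window runs (65.1%), against 28.4% of all 18562 runs. Elsewhere its departure from the mean of normal tolerance replicates 2 and 3 followed the level of the run, with a median of -0.52 for runs at -1 or lower, 0.00 for runs between -0.5 and 0, and 0.22 for runs above 0.5. In the window runs of the same levels the medians were -0.56, -0.49 and -0.42 (7, 19 and 8 runs). For window probes of 45 nt this array had 0.14, against 0.52 and 0.39 on replicates 2 and 3, while for other autosomal probes of 45 nt it had 0.29, against 0.13 and 0.07. It was the only array of its scan session, and the part of the session in this was not tested. Without it, the group differences relative to the other autosomal probes were -0.25, -0.20 and -0.09, and the array-median-centred differences of the chr13 windows turned to -0.14 and -0.09.

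Of the 439 members with enough values for a test per probe (at least 2 per group), none passed limma at an adjusted p under 0.05, and over the whole array 1 of 113885 probes did (0.000878%). At an unadjusted p under 0.05, 69 members passed (15.7%), against 16% of all probes. Of these, 38 were higher with glucose intolerance (8.66%, against 10.4%) and 31 lower (7.06%, against 5.59%). The groups did not overlap in 92 members (21%), against 22.8% of all probes, 53 of them higher with glucose intolerance (14.6% of all probes) and 39 lower (8.21% of all probes). Each of these shares was near that of the array. The median difference was 0.08 over tested members and 0.13 over all tested probes. Median centring used all non-control probes, tested or not, and left this shift of the tested probes in place. With arrays centred on the other autosomal probes the medians were -0.01 and 0.05. The 7 kept members without enough values were not tested. In simulated data the same fit passed 0 of 100 probes changed by 1 log2 unit and 28 of 100 changed by 2. For simulated runs it passed 55 of 100 and 93 of 100. The simulated noise was independent between probes and held no scan-session effect, so these shares need not hold for the arrays here.

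**Figure D4:**
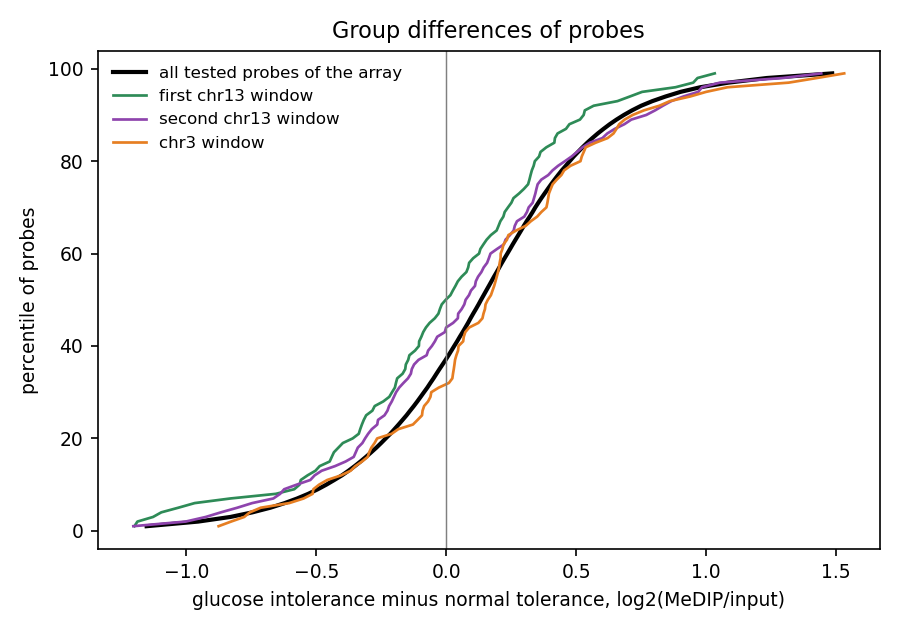
Percentiles of the probe differences, glucose intolerance minus normal tolerance in log2(MeDIP/input), for all 113885 tested probes and the 100, 233 and 106 tested probes of the 3 windows. The curve of the first chr13 window crosses 0 at about its median, which is 0.00, and that of all probes has its median at 0.13.

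The 6 probes with the lowest p, 3 in each direction, gave differences of about 1 log2 unit or more without passing the adjustment. They were picked by p from these same arrays, so their separated groups add no further support. Ch_220697_0027904 (chr13:23741930-23741987) had -0.61, -0.74 and -0.59 on the glucose intolerance arrays, and 1.17, 0.97 and 0.67 on the normal tolerance arrays. The groups did not overlap, and the difference was -1.59 (SE 0.22, adjusted p = 0.103), with a MeDIP difference of -2.06 log2 units and an input difference of -0.34, each relative to the median of the other autosomal probes in that channel. Ch_220697_0027864 (chr13:23672254-23672313) had -1.73, -1.62 and -1.53 against -0.78, -0.54 and -0.31. None of its glucose intolerance MeDIP spots was well above background, so the size of its difference depends on how these spots are treated. The measured difference was -1.08 (adjusted p = 0.127). With its dim MeDIP spots raised as above, the probe was 1.62-fold lower in the glucose intolerance group. The difference was smaller, -0.26, under the alternative normexp background correction. Ch_220697_0028188 (chr13:23874632-23874688) had -0.44, -0.55 and -0.53 against 0.59, 0.35 and 0.42, a difference of -0.96 (SE 0.20, adjusted p = 0.131). In the other direction, Ch_220697_0100142 (chr3:96064326-96064370) had -0.82, -0.16 and -0.10 against -1.34, -2.18 and -2.18, a difference of 1.54 (SE 0.31, adjusted p = 0.13). Ch_220697_0100006 (chr3:96020633-96020689) had -1.43, -0.87 and -1.47 against -2.56, -2.32 and -2.96, a difference of 1.36 (SE 0.26, adjusted p = 0.123). Here the channels separate: the input difference was -1.20 and the MeDIP difference 0.02. Ch_220697_0027403 (chr13:21879970-21880018) had -0.21, 0.51 and -0.17 against -1.61, -1.08 and -1.15, a difference of 1.33 (SE 0.27, adjusted p = 0.132), with a MeDIP difference of 1.29 and an input difference of 0.10.

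Leaving out normal tolerance replicate 1 brought 16 of 429 tested members past an adjusted p of 0.05 (3.73%). Of these, 2 were higher with glucose intolerance and the rest lower. Over the whole array 4262 of 109067 tested probes passed (3.91%), and 2108 of these were higher with glucose intolerance. The direction in the windows thus differed from that of the array, where the total share did not. Of the 6 probes just named, 5 then passed, with adjusted p between 0.0364 and 0.0497, and Ch_220697_0027403 did not. No member passed when any of the other 5 arrays was left out.

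**Figure D5:**
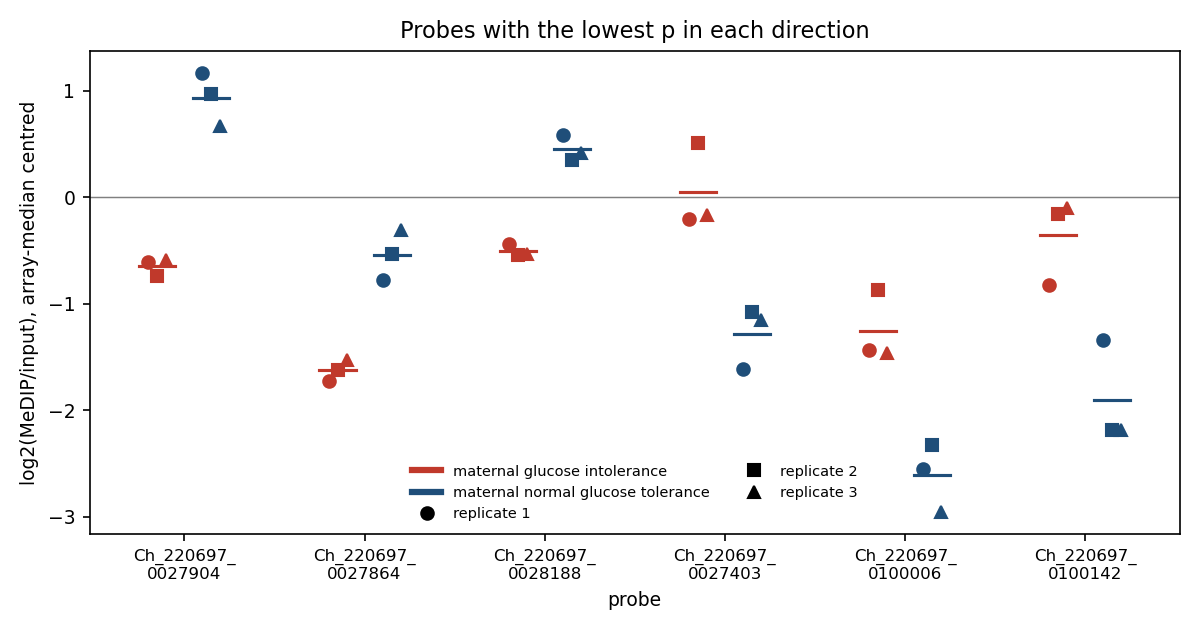
Array-median-centred log2(MeDIP/input) of the 6 window probes with the lowest p, 3 in each direction, on each array. Points are arrays and bars are group means. The groups do not overlap in any of the 6 probes, which were picked by p from these same arrays. Over all tested probes of the array 22.8% did not overlap. None of the 6 passed the adjusted test.

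No run of the windows passed limma at an adjusted p under 0.05, and none of the 18562 runs of the array did (0%). At an unadjusted p under 0.05, 7 of 63 window runs passed (11.1%), against 15.8% of all runs, 5 higher with glucose intolerance (13.3% of all runs) and 2 lower (2.51% of all runs). The groups did not overlap in 12 window runs (19%), against 22.1% of all, 10 of them higher (17.5% of all runs) and 2 lower (4.55% of all runs). Differences were above 0 in 8 of 15, 22 of 34 and 14 of 14 runs, together 44 (69.8%), against 70.8% of all runs. For the chr3 window this count was 12 of 14 with arrays centred on the other autosomal probes, and 9 of 14 without normal tolerance replicate 1. Over the windows together, 37 of 63 runs were above 0 with arrays centred on the other autosomal probes (58.73%, against 57.2% of all runs). Without normal tolerance replicate 1 the count was 29 of 63 (46.03%, against 66.9% of all runs), so the windows then lay below the array.

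Adjacent runs of the first chr13 window went in opposite directions. The run at chr13:22036661-22037309 (4 probes) had 0.08, -0.01 and -0.05 on the glucose intolerance arrays and -0.51, -0.75 and -0.40 on the normal tolerance arrays, a difference of 0.56 (SE 0.13, adjusted p = 0.22). The spot of its highest probe on normal tolerance replicate 2 was left out as an outlier, so that array's value rests on the other probes of the run. With outlier spots kept the difference was 0.43 (adjusted p = 0.204). All 4 of its probes were higher with glucose intolerance, by 0.31 to 0.51. Averaged over these probe differences, the input difference was -0.53 and the MeDIP difference -0.24. The run just before it, at chr13:22035718-22036175 (3 probes), had -0.78, -0.81 and -1.38 against -0.61, -0.48 and -0.47, a difference of -0.47 (SE 0.18, adjusted p = 0.282). Of its probes, 2 of 3 were slightly higher with glucose intolerance, and 1 differed by -1.52. With dim MeDIP spots raised the difference was -0.01, and it was 0.11 when gaps up to 1000 bp joined it to its neighbours.

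In the second chr13 window the run at chr13:23741257-23742179 (4 probes), which contains Ch_220697_0027904, had 0.01, 0.07 and -0.18 against 0.53, 0.37 and 0.49, a difference of -0.50 (SE 0.12, adjusted p = 0.22). Its probe differences ran from -1.59, that of Ch_220697_0027904, to 0.05, and 1 of 4 probes was higher with glucose intolerance. Much of the run difference thus came from that single probe. The run at chr13:23790158-23790831 (4 probes) had 0.60, 0.82 and 0.53 against -0.27, 0.35 and 0.33, a difference of 0.51 (SE 0.19, adjusted p = 0.275), and all 4 probes were higher. Here too a normal tolerance replicate 2 spot was left out as an outlier, and the difference was 0.43 with it kept (adjusted p = 0.342). In the chr3 window the run with the lowest p was at chr3:96061489-96062768 (5 probes), with -0.56, -0.45 and -0.63 against -1.12, -0.73 and -0.94. The difference was 0.38 (SE 0.14, adjusted p = 0.273), 4 of 5 probes were higher, and it was 0.26 with dim MeDIP spots raised. No run of the chr3 window was lower with glucose intolerance in the array-median-centred levels.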

How the data were processed

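The deposited scanner files hold spot intensity values of 6 two-colour Agilent arrays, on mm9 coordinates; Agilent Feature Extraction 11.0.1.1 subtracted background and normalized the dyes under a ChIP protocol, per the file headers. The deposited log10 ratio was set against the ratio used here, and 96.7% of spots differed by less than 0.01 log2 units. A deposited series table gives log2 values; its background treatment, normalization and any smoothing are not given in the sources used here. The table medians per array were 0.033, 0.032, 0.027, 0.027, 0.032 and 0.038, its direction is that of MeDIP over input (r = 0.81 to 0.89 with the scanner ratios), and it was used as an alternative.

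Values are log2 ratios of the processed Cy5 and Cy3 intensities, centred on each array's median non-control probe, without loess or quantile normalization. Outlier spots (1.77%) were set to missing, and probes with input not well above background on all 6 arrays were left out. The number of arrays limits the precision. Cy5 was MeDIP on every array, so dye bias stays in the ratio. Window means were compared over arrays by exact sign-flip or permutation tests. Probes and runs were fitted over the whole array with limma 3.58.1 (R 4.3.3), Benjamini-Hochberg adjustment and a threshold of 0.05, and the fits were tested on simulated data. Named were the highest and lowest run of each window and its lowest-p run each way, and over the windows the 3 highest, 3 lowest and, each way, 3 lowest-p probes. The members, lists and tests were chosen with earlier results of these data known. The probe-length references, and the flanks as reference for group differences, were added after seeing the data. Planned gene lists and marker lists could not be applied, since probes carry no gene names; no coordinates were converted between builds. The files hold median and not mean signals, so the planned normexp (offset 50) and unsubtracted alternatives used medians. Promoters come from RefSeq (GRCm38.p6).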

Additional observations from a re-analysis of the deposited data

How the results depend on the processing

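The number of arrays and dim signals limit these results: leaving out 1 array makes 0.0625 the smallest exact p of a window level, so no such value could pass, and dim MeDIP spots give only bounds. The chr3 level stayed below the other autosomal probes under each alternative run. It passed under each alternative that kept 6 arrays and the plain reference, and stood at -0.12 with references weighted to probe lengths. That reference gave 0.041 for the second chr13 window, 0.068, 0.23 and 0.16 for the pairs of windows, and -0.039 for the chr3 window against its flanks, none of which passed. The second chr13 level passed with no filter on dim input (-0.25), outlier spots kept (-0.16), the deposited table (-0.15), loess (-0.16), medians over probes (-0.22) and runs weighted equally (-0.23). The difference between the second chr13 and chr3 windows did not pass with no filter (0.033), medians (0.048) or runs weighted equally (0.027), nor did the chr3 difference from its flanks with medians (-0.10) or runs weighted equally (-0.031). Medians turned the first chr13 level to -0.0024. Group differences near 0 changed sign. Relative to the other autosomal probes that of the chr3 window was -0.0044 with no filter, -0.0064 with both channels above background, -0.0175 with normexp, -0.028 with unsubtracted signals, -0.013 in the deposited table, -0.0199 with quantile normalization, -0.0092 with dim MeDIP spots raised and -0.052 with medians, which gave 0.029 and 0.0078 for the chr13 windows. Array-median centred, the first chr13 window gave -0.0065 with outliers kept, -0.046 with loess, -0.071 with quantile normalization and -0.0202 centred on other autosomal probes, and the second -0.048, -0.066 and -0.0035 under the last 3. The cause was not tested.

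Window probes past an adjusted p of 0.05 numbered 1 with both channels above background (0.215% of all probes), 13 with normexp (5.35%), 3 unsubtracted (0.61%), 20 in the deposited table (4.98%), 5 with quantile normalization (1.51%) and 5 with trended robust variance (0.703%). Unadjusted counts were 138 with no filter (18.4%, against 16.4% of all probes), 104 with normexp (23.7%, 27.8%) and 23 with scan session as a random block (5.24%, 5.26%). Runs past the adjusted threshold numbered 3 with normexp (8.71% of all runs) and 3 in the deposited table (4.97%). Unadjusted counts of runs were 15 with normexp (23.8%, against 34.1% of all runs), 14 unsubtracted (22.2%, 30.2%), 12 in the deposited table (19%, 28.4%), 3 with loess (4.76%, 13.3%), 3 centred on other autosomal probes (4.76%, 11.9%), 3 with the session block (4.76%, 5.21%) and 4 with gaps up to 1000 bp (7.41%, 16.8%). Probe Ch_220697_0027904 kept its direction under 19 of 19 alternatives and passed under 8, with differences from -1.72 to -0.94 and adjusted p from 0.0148 to 0.925. The other named lowest-p probes also kept theirs, but most differences shrank under some alternatives. At the smallest they were -0.26 for Ch_220697_0027864, -0.33 for Ch_220697_0028188, 1.37 for Ch_220697_0100142, 0.57 for Ch_220697_0100006 and 0.50 for Ch_220697_0027403. These passed under 4, 5, 5, 2 and 3 alternatives. With no filter the run at chr13:22035718-22036175 and the run starting at chr13:22036661 shared the same value, 0.18. With the wider gaps the former gave 0.11. Both values belong to longer runs that joined it to its neighbours, so neither shows that the run itself changed direction. Levels of named runs moved too. The highest chr3 run gave -0.11 with no filter and kept its sign under 18 of 20 alternatives. Its lowest value, -0.43, was also the highest value of the lowest chr3 run. It belongs to a single run into which the wider gaps joined both, so it is not a level of either run alone. With no filter the lowest and highest runs of the second chr13 window gave -0.46 and 0.35. Same-numbered arrays of the 2 groups deviated together over all runs at r = 0.57, 0.54 and 0.04, so the numbers were not taken as a pairing; with the replicate number as a block, 24 window probes (3.69% of all probes) and 2 runs (4.27%) passed the adjusted threshold, and 14 runs the unadjusted one (22.2%, against 25.9% of all runs).

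Leaving out each array in turn gave levels of 0.034 to 0.15, -0.22 to -0.13 and -0.30 to -0.23 in the 3 windows, differences between windows of 0.25 to 0.28, 0.32 to 0.38 and 0.056 to 0.10, and differences from flanks of 0.62 to 0.67, 0.28 to 0.35 and -0.22 to -0.16. Group differences ranged from -0.25 to 0.041, -0.20 to 0.032 and -0.0898 to 0.087 relative to the other autosomal probes, and from -0.14 to 0.19, -0.092 to 0.17 and 0.018 to 0.24 array-median centred. Adjusted calls ranged from 0 to 16 probes (16 without normal tolerance replicate 1), and were 0 for runs under each. Unadjusted calls ranged from 41 probes without normal tolerance replicate 3 (10.1%, against 8.93% of all probes), with 43 without glucose intolerance replicate 2 (10.1%, 10%), to 117 without normal tolerance replicate 1 (27.3%, 29.1%). Those of runs ranged from 3 without glucose intolerance replicate 2 (4.76%, against 9.06% of all runs) to 16 without normal tolerance replicate 1 (25.4%, 27.8%).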
